A study of Mus musculus with 3 samples.

Results

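The genes described here are 9 transcripts of the NF-kB response: the chemokines Ccl3, Ccl4 and Cxcl2, the cytokines Il1b and Tnf, the feedback inhibitors Nfkbia and Tnfaip3, the immediate response gene Ier3 and the myeloid secreted-protein gene Wfdc17. They were taken by symbol from the 56980 genes of the deposited matrices, and each symbol matched 1 gene. They had been picked because their levels differed between libraries of the same series, so every level and ratio below is a description of these libraries. No difference was tested, since each group was 1 library.

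The study profiled mouse bone marrow at day 14 after a single 6 Gy dose of gamma irradiation. The Control library came from wildtype C57BL/6 mice without irradiation, the IR library from irradiated mice given solvent, and the IR+CBD library from irradiated mice that also received 4 injections of cannabidiol at 50 mg/kg. Male mice were used and their age is not given in the sources used here. In every group, femoral marrow of 3 mice was pooled, so the libraries held no separable animals. Before loading, progenitor-rich Lin-Kit+ cells were combined with smaller sorted fractions of Lin-Kit- and of Lin+ cells, so the share of each cell type was partly set by the sort.

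NF-kB is a family of transcription factors held in the cytoplasm by inhibitors of the IkB family, of which the Nfkbia product is the best known. Signals through tumour necrosis factor, interleukin-1 and Toll-like receptors lead to IkB degradation and to transcription of chemokines and cytokines, and also of Nfkbia and Tnfaip3 themselves, which end the response. In marrow, neutrophils, monocytes and basophils are known sources of the chemokines, and progenitors can also transcribe them.

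Promoter sequence shows which of the members carry the NF-kB consensus close to the start site. RefSeq sequence of mouse build GRCm38.p6 was found for 8 of the 9 members, with 9 promoters because Tnfaip3 has 2, and the 250 bases before each start were searched on both strands. The NF-kB consensus was present in 4 promoters, those of Cxcl2, Nfkbia, Ier3 and the first promoter of Tnfaip3, against 1281 of 32851 mouse promoters of the same length (3.90%). The 4 matching sequences are printed 5′ to 3′ in gene direction, with the matched bases in capitals, together with that of Ccl3 as a chemokine promoter without a match.
Cxcl2: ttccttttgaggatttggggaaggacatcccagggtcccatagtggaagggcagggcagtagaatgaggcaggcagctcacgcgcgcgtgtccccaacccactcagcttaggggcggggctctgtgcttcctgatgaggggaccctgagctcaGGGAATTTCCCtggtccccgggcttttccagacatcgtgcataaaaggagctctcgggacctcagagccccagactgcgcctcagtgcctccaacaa
Nfkbia: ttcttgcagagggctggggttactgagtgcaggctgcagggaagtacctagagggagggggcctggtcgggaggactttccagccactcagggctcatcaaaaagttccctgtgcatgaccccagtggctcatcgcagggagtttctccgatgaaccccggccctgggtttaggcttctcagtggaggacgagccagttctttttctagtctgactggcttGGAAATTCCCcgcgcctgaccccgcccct
Tnfaip3: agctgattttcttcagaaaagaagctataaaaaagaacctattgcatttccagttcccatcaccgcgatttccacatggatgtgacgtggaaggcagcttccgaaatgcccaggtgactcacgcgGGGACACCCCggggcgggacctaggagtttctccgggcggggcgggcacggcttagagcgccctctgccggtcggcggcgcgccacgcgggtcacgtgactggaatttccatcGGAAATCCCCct
Ier3: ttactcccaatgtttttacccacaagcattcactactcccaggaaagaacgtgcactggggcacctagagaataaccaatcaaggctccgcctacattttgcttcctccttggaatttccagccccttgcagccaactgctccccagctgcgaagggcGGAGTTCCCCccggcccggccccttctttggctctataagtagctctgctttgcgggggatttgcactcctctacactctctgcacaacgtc
Ccl3: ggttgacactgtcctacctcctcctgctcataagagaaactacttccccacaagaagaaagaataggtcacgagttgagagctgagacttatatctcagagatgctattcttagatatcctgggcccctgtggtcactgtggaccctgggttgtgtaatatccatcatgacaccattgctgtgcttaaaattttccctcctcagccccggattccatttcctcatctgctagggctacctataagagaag

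The Cxcl2 sequence lies at chr5:90903649-90903898 on the plus strand and held a match on each strand, from 97 to 88 and from 96 to 87 bases before the start. The Nfkbia sequence, at chr12:55492648-55492897 on the minus strand, held its match on the strand opposite to the gene, 29 to 20 bases before the start. The Tnfaip3 sequence, at chr10:19015411-19015660 on the minus strand, held matches at 125 to 116 and at 12 to 3 bases before the start. The Ier3 sequence, at chr17:35821463-35821712 on the plus strand, held 1 match on the opposite strand at 92 to 83 bases. The Ccl3 sequence lies at chr11:83649379-83649628 on the minus strand. The AP-1 letters TGANTCA, searched on both strands, occurred only in the first Tnfaip3 promoter among the 9, at 136 to 130 bases (6.75% of all promoters), and did not overlap an NF-kB match. The TATA box letters TATAAA, searched on the gene strand, occurred in the Il1b promoter at 31 to 26 bases, in the Tnf promoter at 29 to 24 bases and in the first Tnfaip3 promoter at 225 to 220 bases (7.59% of all promoters). A match is only a description of these letters.

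Cells with at least 200 detected genes and at most 5% mitochondrial UMIs were kept, which left 10674 Control, 10345 IR and 10273 IR+CBD cells with medians of 12479.5, 14211 and 12502 UMIs. UMIs are molecule counts, and levels are given as CPM, the UMIs of a gene per 1000000 UMIs summed over the cells of a library or gate. The 3 pairs of libraries shared 26 to 34 barcodes among kept cells. Bracketed ranges are exact 95% intervals that cover counting error only and hold no variation between mice. The median gene had a log2 ratio within 0.06 of 0 in the comparisons over all cells. A call below means a ratio at least 1.5-fold from 1 with 20 or more UMIs in the libraries compared.

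Over all kept cells, 8 of the 9 members were lower in IR than in Control and 8 of 9 were higher in IR+CBD than in IR. The differences were largest for Wfdc17, Ccl4, Ccl3, Ier3 and Tnf, which were 1.73-fold to 2.40-fold lower in IR. These 5 members were called lower, where 12.3% of all genes tested were. None of the 9 was called higher in IR+CBD than in IR, where 5.1% of genes were. Because the members were chosen on these contrasts, nothing is read from the counts. In sums over a whole library, fewer cells of a type and less RNA per cell cannot be told apart.

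Ccl3 encodes a chemokine that attracts leukocytes, with Ccr1 among its receptors. Its level over all cells was 78.3 CPM in Control, 39.8 CPM in IR and 42.9 CPM in IR+CBD. Both irradiated libraries were low, and the IR over Control ratio was 0.508 (0.495 to 0.522). The IR+CBD over IR ratio was 1.08 (1.04 to 1.11). Ccl4, a neighbouring gene for a related chemokine, stood at 133 CPM in Control, 58.5 CPM in IR and 75.7 CPM in IR+CBD. IR was again the lowest library and IR+CBD lay between, with an IR over Control ratio of 0.440 (0.430 to 0.449). The IR+CBD over IR ratio was 1.29 (1.26 to 1.33). Cxcl2, which attracts neutrophils through Cxcr2, was 82.5 CPM in Control, 64.6 CPM in IR and 96.9 CPM in IR+CBD. Here IR+CBD was the highest library. The IR+CBD over IR ratio of 1.499 lay just under the 1.5-fold limit of a call.

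Il1b, which encodes the precursor of interleukin-1 beta, did not share the order of the other members. Its level was 8.98 CPM in Control, 10.4 CPM in IR and 14.4 CPM in IR+CBD, so that Control was the lowest library. The IR over Control ratio was 1.16 (1.09 to 1.23) and the IR+CBD over IR ratio was 1.39 (1.31 to 1.47). Tnf, the tumour necrosis factor gene, was 28.4 CPM in Control, 16.4 CPM in IR and 24.2 CPM in IR+CBD. IR was the lowest, with ratios of 0.578 (0.554 to 0.604) and 1.48 (1.41 to 1.54).

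The inhibitors differed less between libraries. Nfkbia, which encodes IkB alpha, was 365 CPM in Control, 328 CPM in IR and 320 CPM in IR+CBD, so that both irradiated libraries were 10.3% to 12.3% below Control. Tnfaip3, which encodes the ubiquitin-editing enzyme A20, was 55.3 CPM in Control, 42.1 CPM in IR and 52.7 CPM in IR+CBD. Only IR was distinctly low, with an IR over Control ratio of 0.762 (0.740 to 0.784) and an IR+CBD over IR ratio of 1.25 (1.22 to 1.29). Ier3, an early response gene linked to cell survival, was 143.8 CPM in Control, 78.0 CPM in IR and 84.1 CPM in IR+CBD. Its order was that of Ccl3, with IR 45.7% below Control and an IR+CBD over IR ratio of 1.08.

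Wfdc17 encodes a small secreted protein of the whey acidic protein family made by activated myeloid cells. It was 96.5 CPM in Control, 40.3 CPM in IR and 54.6 CPM in IR+CBD. Its IR over Control ratio of 0.417 (0.406 to 0.428) was the lowest of the 9, and its IR+CBD over IR ratio was 1.36 (1.32 to 1.396). Against Control, Ccl3, Ccl4, Ier3 and Wfdc17 were called lower in IR+CBD at ratios of 0.547 to 0.585 (4 of 9, with 10.9% of genes), and Il1b was called higher at 1.604 (1 of 9, with 5.47% of genes). This last comparison shares its libraries with the other contrasts. With the class weighting described below, 2 of these 5 calls remained, those of Ccl3 and Wfdc17.

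**Figure D1:**
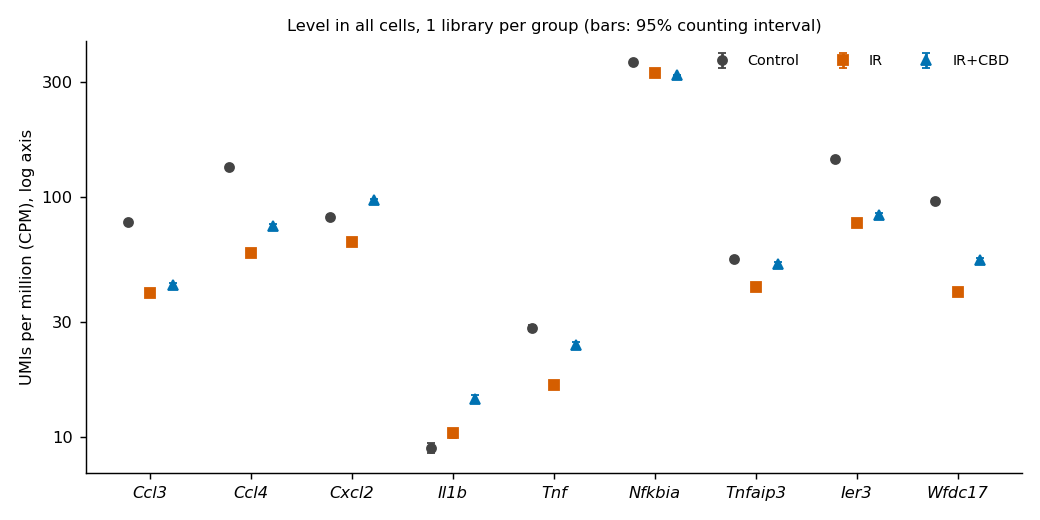
Levels of the 9 genes in the Control, IR and IR+CBD libraries over all kept cells, in CPM of summed UMIs on a log axis, with exact 95% Poisson intervals (counting error only, 1 library per group). IR was the lowest library for 7 of the 9 genes, the exceptions being Il1b, lowest in Control, and Nfkbia, 328 CPM in IR against 320 CPM in IR+CBD.

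The levels were next read in 7 gates set on raw UMIs of a cell. These were Mpo at 5 or more (myeloid progenitors), Klf1 at 2 or more (erythroid), Cd79a at 2 or more (B lineage), Retnlg at 5 or more (neutrophils), Siglech at 3 or more (plasmacytoid dendritic cells), Mcpt8 at 2 or more (basophil and mast lineage), and Cd34 with Adgrl4 at 1 or more each (early progenitors). A cell could pass several gates. Of the Mcpt8 gate 91.5% to 94.3% also passed the Mpo gate, and of the Cd34 Adgrl4 gate 69.0%, 87.4% and 83.4% did in Control, IR and IR+CBD. Marker lists that had no part in the gates stood above their all-cell level for 5 to 6 of 6 Mpo gate markers, 8 of 9 stem and early progenitor markers in the Cd34 Adgrl4 gate, and 7 of 7 in each other gate.

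Adgrl4 also marks endothelium. In the Cd34 Adgrl4 gate the endothelial genes Cdh5 (0.158, 0.149 and 0.0898 CPM in Control, IR and IR+CBD) and Kdr (0.474, 0.372 and 0.413 CPM) were near 0, and Lyve1 was at 0 in IR+CBD. The whole list of 7 endothelial markers summed to 124, 123 and 121 CPM in this gate, mostly Pecam1 at 116, 119 and 117 CPM, against 100.55, 84.8 and 81.5 CPM over all cells. Of the 7 markers 4, 2 and 4 stood above their all-cell level. The make-up of that gate was not the same in the libraries: the stem cell gene Hlf was 49.3, 21.5 and 27.7 CPM, and the summed megakaryocyte markers were 70.7, 21.8 and 26.3 CPM. The part of these markers in the member ratios was not tested.

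Gate sizes differed as well. The Mpo gate held 30.2%, 28.2% and 32.1% of Control, IR and IR+CBD cells, with median depths of 33196, 30684 and 24151 UMIs per cell. The Klf1 gate held 5.49%, 14.0% and 11.5%, and the Cd34 Adgrl4 gate 29.2%, 18.9% and 19.2%. With the CPM of each exclusive cell class weighted by the Control shares, the IR over Control ratios over all cells became 0.654 for Ccl3, 0.622 for Ccl4, 0.741 for Tnf, 0.647 for Ier3 and 0.473 for Wfdc17. All 5 lay closer to 1 than in the plain sums. Cxcl2 became 0.857, and Il1b stayed above 1 at 1.16. Nfkbia and Tnfaip3 became 0.844 and 0.749, each further from 1 than in the plain sums. Weighted in the same way, the IR+CBD over IR ratios were 1.15 for Ccl4, 1.33 for Cxcl2, 1.20 for Il1b, 1.36 for Tnf, 1.28 for Tnfaip3, 1.03 for Ier3 and 1.11 for Wfdc17. Ccl3 turned from 1.08 to 0.956 and Nfkbia was 0.996, so that 7 of the 9 lay over 1.

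In the Mpo gate, all 9 members were lower in IR than in Control, the interval of Il1b alone including 1, and all 9 were higher in IR+CBD than in IR. Ccl3, Ccl4, Ier3 and Wfdc17 were called lower in IR, 4 of 9 where 8.32% of genes were. Cxcl2 and Il1b were called higher in IR+CBD, 2 of 9 where 5.48% of genes were. Ccl4 was 118 CPM in Control, 76.4 CPM in IR and 104 CPM in IR+CBD, and IR was the low library at ratios of 0.646 (0.628 to 0.665) and 1.37 (1.32 to 1.41). Cxcl2 was 58.5, 39.6 and 60.9 CPM in the same order, and IR alone was low. Wfdc17 was 36.6, 12.8 and 14.5 CPM, low in both irradiated libraries.

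The Ccl4 ratio in the Mpo gate depended on cells shared with other gates. Among cells that passed the Mpo gate alone (770 Control, 937 IR and 1247 IR+CBD cells), the IR over Control ratio of Ccl4 was 1.11, while that of Ccl3 was 0.740 and that of Wfdc17 0.443. Splits of the gate chosen after the values were seen gave Ccl4 ratios of 0.687 in Mpo gate cells that also passed the Cd34 Adgrl4 gate, 0.576 in those that did not, and 0.631 in those outside the Mcpt8 gate. The IR+CBD over IR ratio of Ccl4 was 1.29, 1.62 and 1.53 in these splits. Il1b, with 95 to 144 UMIs per library in the Mpo gate, had an IR+CBD over IR ratio of 1.69 there and of 0.908 in Mpo-only cells.

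In the Cd34 Adgrl4 gate, all 9 members were lower in IR than in Control and 7 of 9 were called, where 11.7% of genes were. The exceptions to the call were Nfkbia at 0.726 and Tnf at 0.701. Wfdc17 was 84.0 CPM in Control, 19.1 CPM in IR and 16.7 CPM in IR+CBD, low in both irradiated libraries at an IR over Control ratio of 0.228 (0.214 to 0.241). Ier3 was 192 CPM, 106.8 CPM and 112.7 CPM. Ccl4 was 162 CPM in Control, 90.4 CPM in IR and 115 CPM in IR+CBD. In IR+CBD against IR, 1 member, Il1b, was called higher in this gate (5.43% of genes), on 81 against 53 UMIs.

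The neutrophil gate gave another order. In Retnlg cells (1004, 1076 and 1215 cells) Cxcl2 was 445 CPM in Control, 522 CPM in IR and 656 CPM in IR+CBD, so that Control was the lowest library. The ratios were 1.17 (1.13 to 1.21) and 1.26 (1.22 to 1.30). Il1b likewise was 109 CPM, 129.9 CPM and 151 CPM. Wfdc17 was 577 CPM in Control, 355 CPM in IR and 493 CPM in IR+CBD, lowest in IR, at a ratio of 0.615 (0.594 to 0.638), and was the only 1 of 9 members called lower there, against 7.37% of genes. None of the 9 was called higher in IR+CBD than in IR in this gate, against 4.96% of genes.

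Neutrophils held most of the Il1b transcripts. The Retnlg gate carried 82.2%, 91.6% and 88.4% of the Il1b UMIs of the Control, IR and IR+CBD libraries, from 9.41% to 11.8% of the cells. The corresponding shares were 36.5%, 59.2% and 57.1% for Cxcl2 and 40.4%, 64.6% and 76.0% for Wfdc17. For Ccl4 the Retnlg gate carried at most 3.14%, whereas the Mpo gate carried 50.7%, 60.9% and 67.4%. The Retnlg gate thus held a larger share of the Cxcl2 and Wfdc17 UMIs in the irradiated libraries than in Control.

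**Figure D2:**
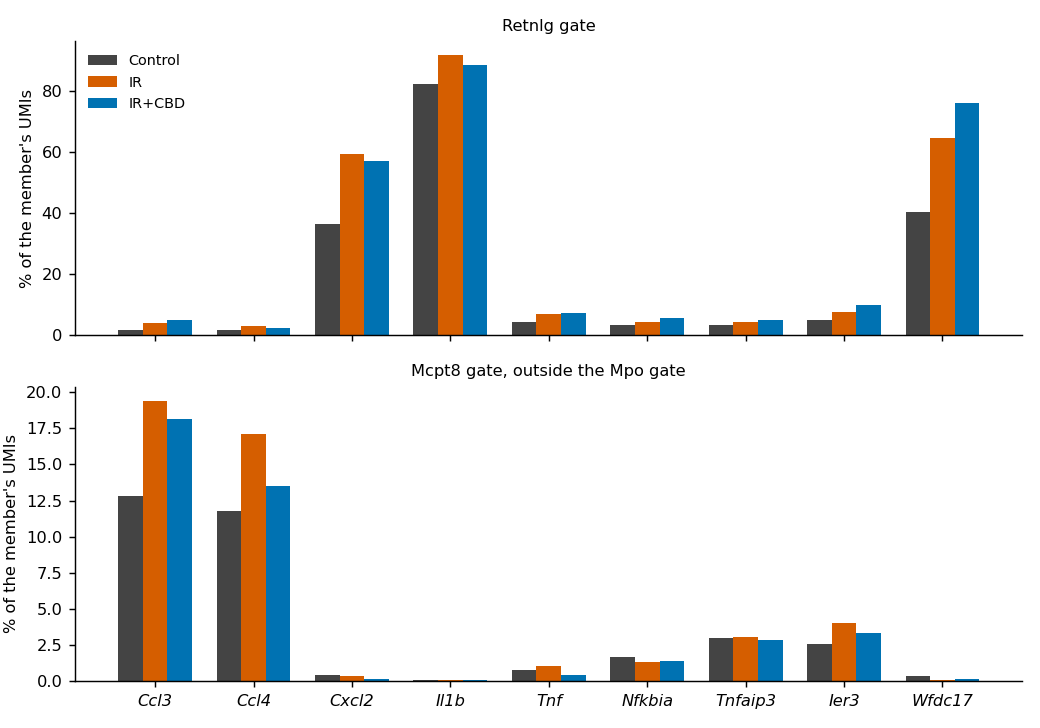
Share of each gene's UMIs (percent of the library total) that lay in Retnlg gate cells (top) and in Mcpt8 gate cells outside the Mpo gate (bottom), for the Control, IR and IR+CBD libraries. Il1b lay mostly in the Retnlg gate (82.2% to 91.6%), while 11.8% to 19.4% of Ccl3 and Ccl4 UMIs lay in 40 to 60 Mcpt8 gate cells.

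Shares of cells with a UMI were compared after each cell was thinned to 2000 UMIs, because gates differed in depth. In the Retnlg gate 17.5%, 15.5% and 16.4% of cells held an Il1b UMI in Control, IR and IR+CBD (25.1%, 23.7% and 24.3% before thinning, at medians of 8769.5, 9707.5 and 8823 UMIs). In the erythroid Klf1 gate, which should lack Il1b, the thinned shares were 0.512%, 0.346% and 0.254% (2.05%, 2.49% and 3.22% before thinning, at medians of 39670.5, 42567 and 40039 UMIs). Control, with the lowest Il1b CPM of the Retnlg gate, had the highest thinned share there by a small margin. The shares are given without intervals, so nothing is read from their order. Those of the Klf1 gate rest on 68, 97 and 61 Il1b UMIs before thinning.

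For Ccl4 the thinned shares in the Mpo gate were 16.7%, 10.3% and 12.9% (53.3%, 39.3% and 42.8% before thinning), against 1.37%, 1.11% and 0.679% in the Klf1 gate (12.97%, 6.02% and 6.35% before thinning). Over all cells the thinned shares were 11.9%, 4.68% and 6.62%. A small set of cells held most Ccl4 transcripts: 686 Control, 261 IR and 336 IR+CBD cells had 10 or more Ccl4 UMIs, and they carried 72.1%, 67.6% and 63.4% of the total. The IR library had the fewest such cells.

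**Figure D3:**
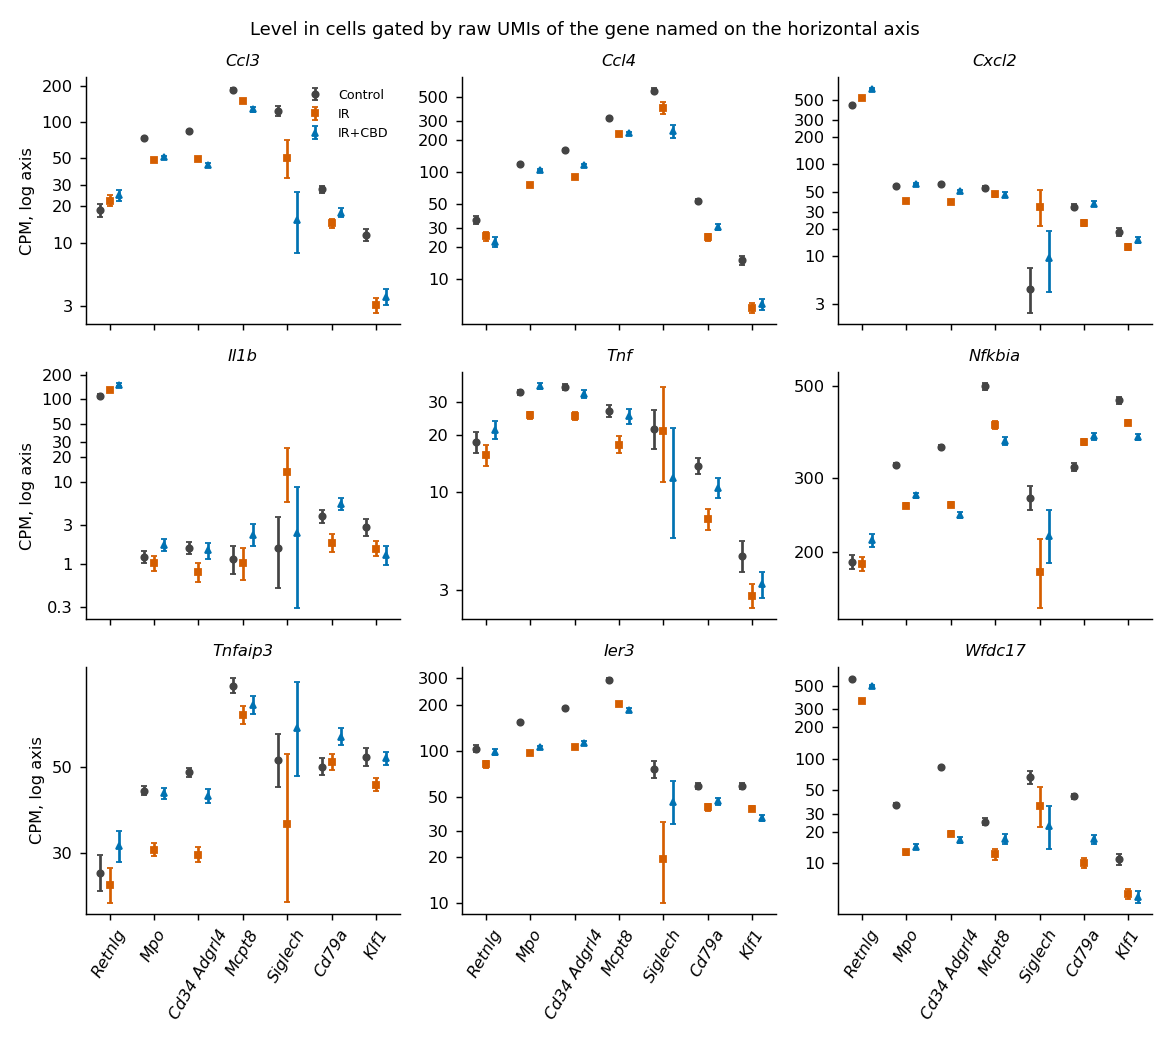
Levels of the 9 genes in the 7 gates (CPM, log axis) for the Control, IR and IR+CBD libraries, with exact 95% Poisson intervals as bars. In the Retnlg gate Cxcl2 ran from 445 CPM in Control to 656 CPM in IR+CBD, and in the Cd34 Adgrl4 gate Wfdc17 ran from 84.0 CPM in Control to 16.7 CPM in IR+CBD.

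Free RNA was checked against S100a8 and S100a9, which neutrophils contain in abundance. In the Cd79a gate Il1b stood at 0.426, 0.233 and 0.471 UMIs per 1000 S100a8 and S100a9 UMIs in Control, IR and IR+CBD, against 0.446, 0.553 and 0.608 in the Retnlg gate. In the Klf1 gate it stood at 1.06, 0.661 and 0.662. Most of these proportions rest on few Il1b UMIs, 65 to 137 in the Cd79a gate and 61 to 97 in the Klf1 gate, and no interval was computed for their differences from the Retnlg gate. In the Mpo gate Cxcl2 stood at 8.65, 6.92 and 8.65 per 1000, above its Retnlg values of 1.82, 2.22 and 2.64, and Ccl4 there at 17.5, 13.3 and 14.8 per 1000 against 0.147, 0.107 and 0.0904.

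The basophil and mast gate (Mcpt8) was a mixed one. Its 7 basophil and mast markers summed to 2021, 1800 and 1521 CPM in Control, IR and IR+CBD, but 6 of 6 myeloid progenitor markers and 4 of 4 eosinophil markers also stood above their all-cell level, the eosinophil list at 900.1, 1782 and 1487 CPM. The part of these other cells in the member ratios was not tested. In this gate Ccl3, Ccl4 and Ier3 stood above their all-cell levels in every library. Ccl4 was 320.5 CPM in Control, 228 CPM in IR and 229 CPM in IR+CBD, low in both irradiated libraries. Ccl3 was 184 CPM, 148 CPM and 127 CPM, and Ier3 was 294 CPM, 205 CPM and 187 CPM, each lowest in IR+CBD. All 9 members had IR over Control ratios under 1, from 0.490 for Wfdc17 to 0.887 for Il1b, whose interval included 1. Tnf and Wfdc17 were called lower, 2 of 9 where 5.46% of genes were, and Il1b alone was called higher in IR+CBD (1 of 9, with 4.58% of genes), on 45 against 21 UMIs.

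Within that gate, cells outside the Mpo gate stood apart. They were 40 Control, 48 IR and 60 IR+CBD cells, a split chosen after the values were seen. Together they held 12.8%, 19.4% and 18.1% of all Ccl3 UMIs and 11.8%, 17.1% and 13.5% of all Ccl4 UMIs of their libraries, from 0.375% to 0.584% of cells. Their Ccl4 level was 7356 CPM in Control, 2353 CPM in IR and 2146 CPM in IR+CBD, with medians of 45, 2 and 3.5 Ccl4 UMIs per cell. Control was high and both irradiated libraries were low, at an IR over Control ratio of 0.320 (0.302 to 0.338). The IR+CBD over IR ratio was 0.912 (0.855 to 0.972). Prss34, a basophil and mast cell protease gene, was also lower there in IR (0.349) but higher in IR+CBD than in IR (1.62). The part of such changes in the cells of this split in the chemokine difference was not tested.

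The plasmacytoid gate (Siglech) was small in the irradiated libraries, with 273 Control, 46 IR and 79 IR+CBD cells. Ccl4 was 575 CPM in Control, 398 CPM in IR and 240 CPM in IR+CBD, lowest in IR+CBD. Of 8 members with enough UMIs, Ccl3, Ier3, Nfkbia and Wfdc17 were called lower in IR (16.2% of genes) and Cxcl2 higher (8.26% of genes). In IR+CBD against IR, 5 of the 8 were called lower (8% of genes), namely Ccl3 at 0.308, Ccl4 at 0.602, Cxcl2 at 0.280, Tnf at 0.565 and Wfdc17 at 0.634. Ier3 and Tnfaip3 were called higher (13.3% of genes). The intervals of Tnf and Wfdc17 included 1. Several of these rest on few molecules: Ier3 had 242, 12 and 39 UMIs. Cxcl2, at 14, 21 and 8 UMIs, had an IR over Control ratio of 7.75 (3.76 to 16.5), while neutrophil S100a8 and S100a9 summed to 4864, 17178 and 5094 CPM in the same gate. The part of neutrophil RNA in that value was not tested. No member of this gate was called higher in IR than in Control without the highest doublet scores or without cells of several gates. The same held without the 10 highest cells or at a minimum of 50 UMIs. The IR+CBD over IR ratios of Ccl3 (0.308) and Tnfaip3 (1.77) in this gate turned to 1.07 with the highest doublet scores removed and to 0.459 after thinning, respectively. The 5 lower calls fell to 1 without the highest doublet scores, after thinning or at a minimum of 50 UMIs. They also fell to 1 with doubled limits or limits per 10000 UMIs. They were 0 without cells of several gates or without the 10 highest cells, 3 as a mean of CPM per cell and 2 at a 2-fold limit.

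In the B-lineage gate (Cd79a), Ccl3, Ccl4, Il1b, Tnf and Wfdc17 were called lower in IR (5 of 9, with 8.1% of genes), and Cxcl2, Il1b and Wfdc17 were called higher in IR+CBD (3 of 9, with 5.74% of genes). Wfdc17 was 43.7 CPM in Control, 10.1 CPM in IR and 17.0 CPM in IR+CBD. Nfkbia went the other way, at 319.6 CPM, 366 CPM and 378 CPM, lowest in Control with an IR over Control ratio of 1.15 (1.12 to 1.18), and Tnfaip3 was 50.2, 51.6 and 59.9 CPM. The inhibitors were not lower in the irradiated libraries of this gate. Without the highest doublet scores the IR over Control ratios of Ccl3 and Ccl4 moved from 0.520 to 0.840 and from 0.457 to 0.771, no longer called. With that setting the count called higher in IR+CBD than in IR fell from 3 to 1. Neutrophil S100a8 and S100a9 summed to 8829, 7740 and 11270.5 CPM in this gate in Control, IR and IR+CBD. The part of neutrophil RNA in the member ratios of this gate was not tested.

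In the erythroid gate (Klf1) each chemokine stood below its all-cell level in every library. Ccl3 was 11.6 CPM in Control, 3.04 CPM in IR and 3.59 CPM in IR+CBD, and Ccl4 was 15.0, 5.39 and 5.86 CPM. Nfkbia stood above its all-cell level, at 461.5, 408 and 377 CPM. Ccl3, Ccl4, Il1b, Tnf and Wfdc17 were called lower in IR (5 of 9, with 8.86% of genes), and 0 of 9 were called higher in IR+CBD (3.19% of genes). Of the 5 calls, 4 turned under an alternative. After thinning the Ccl3 ratio went from 0.262 to 1.35. With the gate limit set per 10000 UMIs Tnf became 1.23 and Wfdc17 1.11. Il1b, on 97 IR against 68 Control UMIs, went from 0.548 to between 1.16 and 4.96 under 4 alternatives.

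A gate outside the 7 was set on the monocyte gene Csf1r at 3 or more UMIs (506, 421 and 300 cells). Most of these cells, 80.0% to 84.1%, also passed the Mpo gate, so the values below are not those of monocytes alone. This gate had more members called higher in IR+CBD than any of the 7 gates. Tnfaip3 and Wfdc17 were called lower in IR than in Control (2 of 9, with 6.49% of genes). Cxcl2, Il1b, Nfkbia, Tnf and Tnfaip3 were called higher in IR+CBD (5 of 9, with 7.49% of genes). Cxcl2 was 98.7 CPM in Control, 66.8 CPM in IR and 189 CPM in IR+CBD, the last well above the others at an IR+CBD over IR ratio of 2.83 (2.61 to 3.06). Tnfaip3 was 47.7, 26.6 and 61.2 CPM, Tnf was 49.4, 41.4 and 73.4 CPM, and Nfkbia was 303, 226 and 341 CPM. All 3 were lowest in IR and highest in IR+CBD. Ccl3 was 101.7, 88.3 and 100.04 CPM, with IR lowest by a small margin. With the Csf1r limit doubled, 2 members were called higher in IR+CBD, the ratio of Cxcl2 was 1.25 and that of Tnf 1.09, and that of Il1b turned from 3.51 to 0.814.

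**Figure D4:**
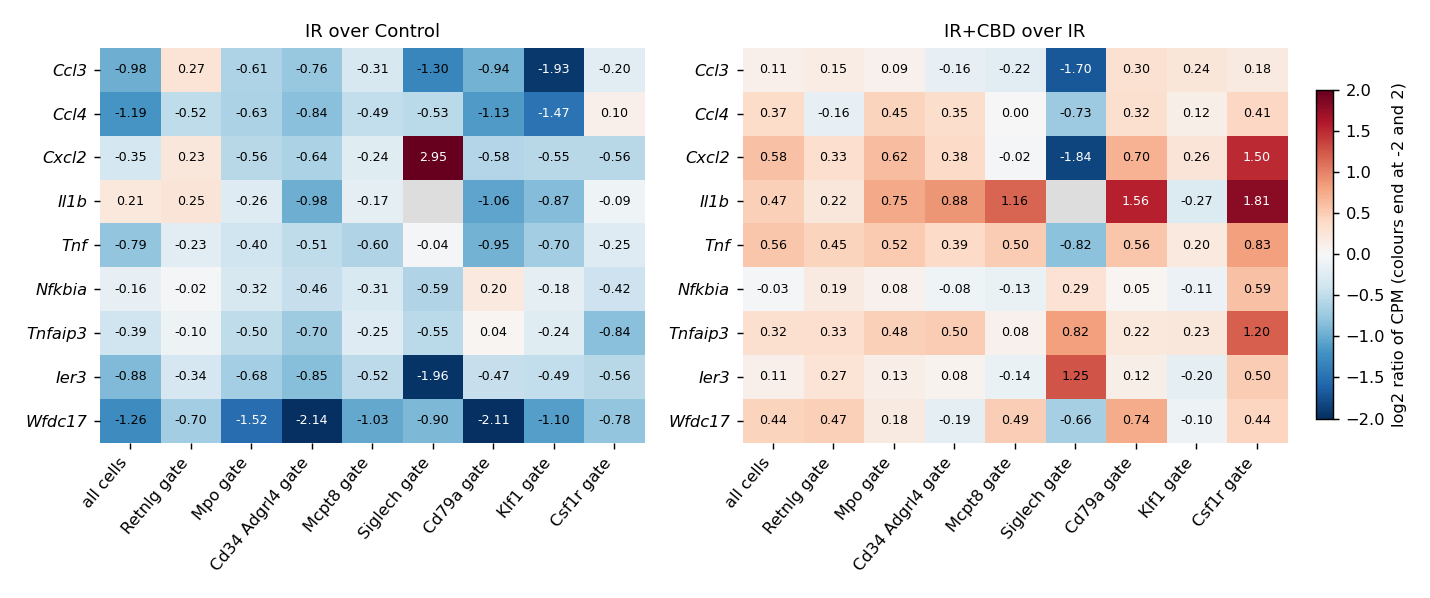
Log2 ratios of CPM for the 9 genes over all cells, in the 7 gates and in the Csf1r gate, IR over Control (left) and IR+CBD over IR (right). Grey cells had under 20 UMIs in the libraries compared, and colours end at -2 and 2. Wfdc17 was lower in IR in every column, down to -2.14 in the Cd34 Adgrl4 gate, and the highest IR+CBD over IR value was 1.81 for Il1b in the Csf1r gate.

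Some members were found in the same cells. After thinning, cells of the Mpo gate with a Ccl3 UMI held Ccl4 in 35.2%, 30.4% and 29.7% of cases in Control, IR and IR+CBD, against 14.2%, 8.57% and 11.4% of cells without Ccl3. In the Mcpt8 gate the shares were 60.3%, 53.8% and 59.7% against 17.6%, 10.5% and 13.7%. In the Retnlg gate, cells with Cxcl2 held Il1b in 37.2%, 35.9% and 35.8% of cases, against 7.53%, 4.97% and 5.91% without it. For the pairs and gates given here, the share was higher in each library in cells with the first gene. Not every pair examined was so. For Cxcl2 beside Wfdc17 the shares were 5.26% against 5.39% in the Mpo gate of IR and 4.35% against 7.53% in the Mcpt8 gate of Control. For Ccl4 beside Ccl3 in the Siglech gate of IR they were 0% against 20.5%, on 2 cells with Ccl3.

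Over the 21 points formed by 7 gates in 3 libraries, the log2(CPM + 1) levels of the members fell into groups. Ccl3 was most like Ccl4 among the members (Pearson r = 0.870) and also like Tnf (0.836). Il1b was like Wfdc17 (0.846) and Cxcl2 (0.794), and Nfkbia like Tnfaip3 (0.747) but opposite to Il1b (-0.631). Among 12468 genes with 1000 or more UMIs, the closest to Il1b were Sirpb1b (0.9904), Tlr13 (0.9897), Fpr1 (0.984), Crispld2 (0.983) and Il1rn (0.983). Tlr13 and Fpr1 are receptors for microbial products, and Il1rn encodes the interleukin-1 receptor antagonist. The closest to Ccl4 was Xbp1 (0.966), to Cxcl2 Stk39 (0.968), to Tnf Gpr65 (0.968), to Wfdc17 Ggt5 (0.954), to Ier3 Btnl9 (0.932), to Ccl3 Nisch (0.901), to Nfkbia Hira (0.864) and to Tnfaip3 Poln (0.833). These points share libraries and overlapping cells, and the values carry no p.

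The rest of the pathway was read over all cells from 100 listed genes, of which 96 had 20 or more UMIs. In IR against Control, 75 of the 96 had a ratio under 1, 15 were called lower (12.3% of all genes) and 3 higher (6.71% of all genes), and their median log2 ratio was -0.25, beside -0.06 over all genes. Of 18 further IkB family and feedback inhibitor genes, all 18 were under 1 and 4 were called: Socs3 at 0.411, Tnip3 at 0.438, Traf1 at 0.443 and Zfp36, whose product destabilises cytokine mRNA, at 0.587. The 5 NF-kB subunit genes were all under 1 with none called. The 20 kinase and adaptor genes were split, 13 under and 7 over 1, with none called.

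Among the receptor genes called lower in IR were the interleukin-1 receptor gene Il1r1 (0.343) and the Toll-like receptor gene Tlr7 (0.641), and Cd40 (1.65) was called higher. Of 18 further chemokine and cytokine genes with enough UMIs, Il6 (0.577), Il18 (0.637) and Lta (0.654, on 36 against 53 UMIs) were called lower, and Cxcl3 (1.59) and Csf2 (35 against 6 UMIs) higher. Of 16 other induced targets, Cd83 (0.370), the prostaglandin synthase gene Ptgs2 (0.503), Nlrp3 (0.642), Icam1 (0.652) and Marcksl1 (0.660) were called lower. In IR+CBD against IR the 96 genes had a median log2 ratio of 0.05, beside 0.00 over all genes. Cxcl10, an interferon-responsive chemokine gene (76.4 CPM in IR+CBD against 37.0 CPM in IR, ratio 2.07), and Ptgs2 (1.58) were called higher. Ccl2 (0.506) and Csf2 (0.20, on 6 against 35 UMIs) were called lower, with 5.03% of all genes called lower there.

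**Figure D5:**
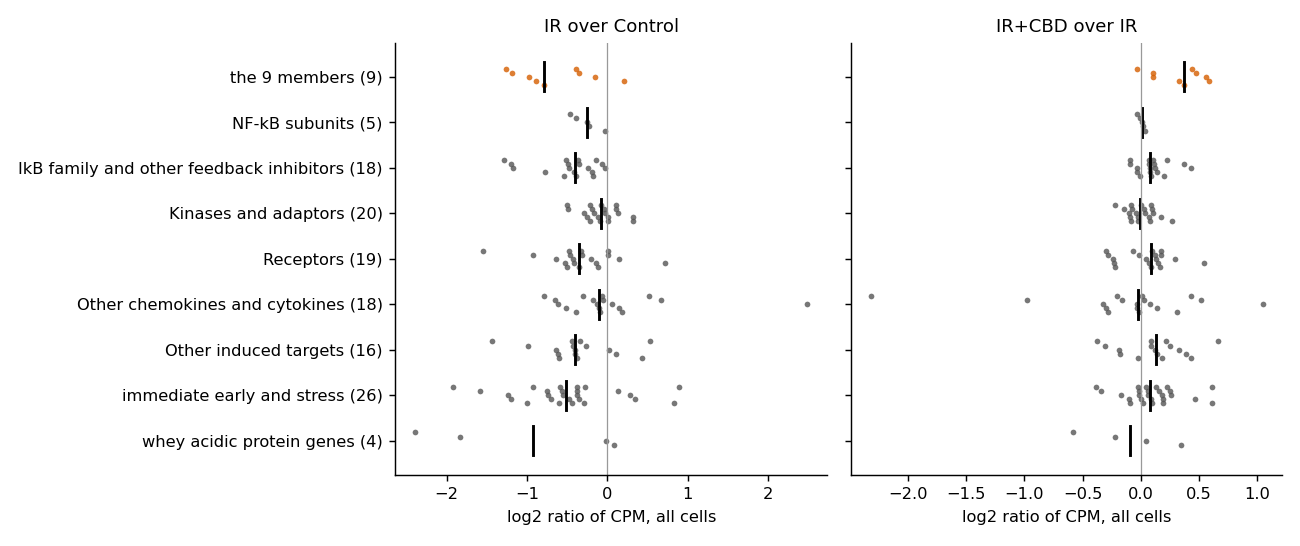
Log2 ratios of CPM over all cells for the 9 genes and for the lists of related genes, each point 1 gene with 20 or more UMIs and the black line the median of its list, for IR over Control and IR+CBD over IR. The feedback inhibitors were all below 0 in IR, and the immediate early and stress list had a median of -0.51.

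Immediate early and stress genes, which respond to handling of cells as well as to signals, were lower in IR like most members. Of 26 such genes 11 were called lower in IR (12.3% of all genes) and 2 higher (6.71% of all genes), with a median log2 ratio of -0.51 over all cells and of -0.67 in the Cd34 Adgrl4 gate. Nr4a1 was 83.8 CPM in Control and 22.2 CPM in IR (ratio 0.265), Egr1 was 179 and 77.9 CPM (0.435), and Fos was 286 and 150 CPM (0.526). The heat shock genes Hspa1a (1.86) and Hspa1b (1.77) went the other way. In IR+CBD against IR the list had a median log2 ratio of 0.07, with 0 called lower (5.03% of all genes) and 2 higher (5.1% of all genes), beside a median of 0.37 for the 9 members. The part of cell handling in the member ratios was not tested, and with 1 library per group a difference of handling and the treatment cannot be told apart. Of 4 other genes of the whey acidic protein family, Wfdc18 (0.191) and Wfdc2 (0.281, on 28 against 96 UMIs) were called lower, while Wfdc21 (0.985) and Slpi (1.06) were level.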

How the data were processed

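The deposited files were 10x matrices, 1 per library (Control, IR and IR+CBD, 3 pooled mice each), holding whole-number UMI counts per gene and cell that the authors made with Cell Ranger. The submitters' processing notes give Cell Ranger 4.0 and build GRCm39, while the matrix headers give version 7.0.1. No normalization had been applied to the deposited counts. UMIs of cells with at least 200 genes and at most 5% mitochondrial UMIs were summed per gene, library and gate, and divided by all UMIs of those cells to give CPM. Sums held 173466089 to 202361682 UMIs per library, and a count of 0 allows at most 3 UMIs. Of the 60-base stretches of Cxcl2 transcripts, 5.32% also occurred in Cxcl3, and the other members shared none with another gene.

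Each group was 1 library, so no test was run. CPM carry exact Poisson intervals, ratios exact conditional binomial intervals and shares of cells Clopper-Pearson intervals, all at 95%. A call is a ratio at least 1.5-fold from 1 with 20 or more UMIs. Doublets were kept, and an alternative removed the highest Scrublet scores. Cells were thinned to 2000 UMIs, with shallower cells (296 to 452 per library) left out. The 13 alternatives were run for IR over Control and IR+CBD over IR over all cells and in the 7 gates. Chosen after seeing the data were 3 further splits of the Mpo gate, and the use of the alternatives in the Csf1r gate and, over all cells, for IR+CBD over Control. Members and lists were chosen with earlier results of these data known. Named genes are the members, listed pathway genes past the call limit over all cells, and the genes closest to each member over the 21 gate and library points. The values of 1 listed receptor gene are not reported here. The scripts were tested on simulated data. Python 3.11.15, numpy 2.4.6, scipy 1.17.1, pandas 2.3.3, scanpy 1.11.5 and matplotlib 3.10.9 were used.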

Additional observations from a re-analysis of the deposited data

Results flagged for a closer look

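The following ratios lay on opposite sides of 1 in different gates of the same libraries. With 1 library per group, the difference between gates was not tested, and each gate's interval covers counting error only. For IR over Control, Ccl3 was 1.21 in the Retnlg gate and 0.262 in the Klf1 gate. After thinning these ratios were 0.603 and 1.35. As a mean of CPM per cell Ccl3 was 0.694 in the Retnlg gate. Il1b was 1.19 in the Retnlg gate and 0.480 in the Cd79a gate. Nfkbia was 1.15 in the Cd79a gate and 0.663 in the Siglech gate. Cxcl2 was 7.75 in the Siglech gate, on 21 against 14 UMIs, and 0.642 in the Cd34 Adgrl4 gate.

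For IR+CBD over IR, 3 chemokine genes were lowest in the Siglech gate of 46 and 79 cells. Ccl3 was 0.308 there and 1.23 in the Cd79a gate, Ccl4 was 0.602 there and 1.37 in the Mpo gate, and Cxcl2 was 0.280 there and 1.62 in the Cd79a gate. Ier3 was 2.39 in the Siglech gate and 0.869 in the Klf1 gate. Wfdc17 was 1.67 in the Cd79a gate and 0.876 in the Cd34 Adgrl4 gate, and Nfkbia was 1.14 in the Retnlg gate and 0.916 in the Mcpt8 gate.

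Barcodes that failed the gene or mitochondrial limit (1526, 1606 and 1611 in Control, IR and IR+CBD) carried signal of 3 members above its level in the Control barcodes left out, with intervals that did not overlap. Tnf was 43.1 CPM in IR+CBD against 20.7 CPM in Control. Nfkbia was 229 CPM in IR and 190.5 CPM in IR+CBD against 151 CPM. Wfdc17 was 49.7 CPM in IR against 17.4 CPM. Other values lay below those of the Control barcodes left out, also without overlap. Tnf was 9.63 CPM in IR against 20.7 CPM, and Ier3 was 24.9 CPM in IR against 43.1 CPM. Cxcl2 was 29.1 and 48.6 CPM in IR and IR+CBD against 63.6 CPM, and Ccl4 26.9 and 24.9 CPM against 42.3 CPM. Il1b was 0.921 CPM in IR+CBD against 4.62 CPM, on 4 against 21 UMIs.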

How the results depend on the processing

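Of 2000 member ratios under the alternatives 1885 kept their side of 1, and 51 of the 60 called ratios did so under every alternative that gave a value. Among the 2000, 163 at a minimum of 50 UMIs and 169 at a 2-fold limit repeat the main ratio. Those could not change side. No paired analysis was possible because each group is 1 library, and for the same reason no replicate was left out. The 3 splits of the Mpo gate named at the end, and all alternatives in the Csf1r gate and for IR+CBD over Control, were added after seeing the data. The cause of each change below was not tested.

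Called ratios that turned, with the gate and setting, were as follows. Without cells of several gates, IR over Control became 1.11 for Ccl4 (Mpo) and 2.11 for Il1b (Klf1), and IR+CBD over IR became 0.908 for Il1b (Mpo). In the Klf1 gate, IR over Control of Il1b became 1.16 with doubled gate limits, 1.72 with limits per 10000 UMIs and 4.96 without the 10 highest cells, that of Ccl3 1.35 after thinning, and those of Tnf and Wfdc17 1.23 and 1.11 with limits per 10000 UMIs. In the Siglech gate, IR+CBD over IR became 1.07 for Ccl3 without the highest doublet scores and 0.459 for Tnfaip3 after thinning. In the Csf1r gate that of Il1b became 0.814 with doubled limits.

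Counts of members lower in IR than in Control are listed where they changed more than 1.5-fold, or to or from 0. Smaller changes of these counts occurred and are left out. At a 2-fold limit they were 2 over all cells, 1 in the Mpo gate, 3 in Klf1, 3 in Cd79a, 0 in Retnlg, 2 in Siglech, 1 in Mcpt8, 1 in Cd34 Adgrl4 and 0 in Csf1r. Without cells of several gates they were 2 in Mpo, 0 in Mcpt8 and 5 in Csf1r. After thinning they were 7 in Mpo, 2 in Klf1, 2 in Retnlg and 4 in Csf1r. As a mean of CPM per cell they were 4 in Csf1r. Without the highest doublet scores they were 2 in Cd79a and 2 in Retnlg. With doubled limits they were 2 in Klf1, 2 in Retnlg and 4 in Mcpt8, and with limits per 10000 UMIs 2 in Klf1, 4 in Mcpt8 and 6 in Csf1r. Without the 10 highest cells they were 3 in Klf1, 2 in Retnlg, 7 in Siglech, 6 in Mcpt8 and 5 in Csf1r. Members lower in IR+CBD than in Control over all cells numbered 2 with class weighting and 0 at a 2-fold limit.

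Counts higher in IR+CBD than in IR changed as follows, listed by the same rule. They were 2 over all cells at up to 10% mitochondrial UMIs. Without the highest doublet scores they were 1 over all cells, 1 in Mpo, 3 in Klf1, 1 in Cd79a, 3 in Retnlg and 0 in Siglech. As a mean of CPM per cell they were 1 over all cells, 0 in Mpo, 1 in Retnlg, 1 in Siglech, 2 in Mcpt8 and 0 in Cd34 Adgrl4. After thinning they were 2 over all cells, 1 in Klf1, 2 in Retnlg and 0 in Siglech. Without cells of several gates they were 2 in Retnlg, 1 in Siglech and 0 in Mcpt8, while 5 were called lower in Mcpt8 (Ccl4 at 0.485, Cxcl2 at 0.186, Tnf at 0.249), 3 in Cd34 Adgrl4 and 1 in Retnlg. With limits per 10000 UMIs they were 1 in Klf1, 0 in Siglech and 0 in Mcpt8, and with doubled limits 0 in Siglech and 2 in Csf1r. Without the 10 highest cells they were 1 in Retnlg, 1 in Siglech and 0 in Mcpt8. At a 2-fold limit they were 0 in Mpo, 1 in Cd79a, 1 in Siglech, 0 in Cd34 Adgrl4 and 3 in Csf1r. The added splits of the Mpo gate gave 1 with the Cd34 Adgrl4 gate, 5 without it and 4 without the Mcpt8 gate. Some settings also gave members called lower in IR+CBD than in IR in the Klf1 gate. Without the highest doublet scores these were 2, Ccl3 at 0.640 and Ccl4 at 0.622. With limits per 10000 UMIs they were 2 in Klf1 and 1 in Mcpt8. With doubled limits and after thinning there was 1 each in Klf1.

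Depth limits Il1b outside the Retnlg gate (2 to 148 UMIs per gate and library) and, in the Siglech gate of the irradiated libraries, the members with 8 to 53 UMIs.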
